A study of Mus musculus with 9 samples.

Results

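Neuroblast and neuronal differentiation genes were followed in NB9464 tumors as a set of 37 genes, out of 54429 gene symbols in the count table. These genes were chosen by name, with earlier results of these data known. The set holds intermediate filaments, microtubule and growth cone proteins, neuronal RNA-binding proteins, the release machinery of synaptic vesicles and granules, axonal adhesion proteins, transcription factors, and signalling proteins of neurons. All 37 symbols were present in the table. Of these, 21 passed the filter on low counts and were tested, and 16 were too low to test.

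NB9464 is a mouse neuroblastoma line that the study describes as MYCN amplified, and all tumors came from this 1 transplanted line implanted under the skin of wild-type C57BL/6 mice. Treatment began at a tumor volume of 250 mm3, with 4 doses between day 28 and day 37, and bulk RNA from 9 whole tumors was sequenced. Vehicle was given to 3 of the tumors, R788 + anti-PDL1 to another 3, and the last 3 received Rad + R788 + anti-PDL1 and are called irradiated tumors here. R788 (fostamatinib) is a prodrug that inhibits the kinase Syk and was dosed at 50 mg/kg. The antibody against PD-L1 blocks an immune checkpoint, and the radiation dose was 10 Gy. The age of the mice was not in the labels. No group with a single agent was analysed here, so the parts of R788, anti-PDL1 and, against Vehicle, radiation cannot be told apart. The labels name whole tumor as the tissue but bone marrow macrophages in the extraction text, and the tumor genes below were read with that conflict unresolved.

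Neuroblastoma arises from sympathoblasts, neural crest cells that would normally become sympathetic neurons or chromaffin cells. As such a cell matures, it extends neurites built on neuronal tubulin, tau and peripherin, stabilises neuronal mRNAs with Hu proteins, and assembles vesicles that release transmitter through SNARE proteins. Before that, many of these genes are held silent by REST, a repressor that binds the RE1 motif near neuronal promoters. In neuroblastoma, high levels of mature neuronal genes mark differentiating tumors, whereas undifferentiated tumors show few of them.

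The label was checked on genes of sympathoblast identity. Th, the rate-limiting enzyme of catecholamine synthesis, had 0 counts in all 9 libraries. Dbh, the next enzyme towards noradrenaline, had a single count in 1 irradiated tumor, and Phox2a, a transcription factor of noradrenergic neurons, did not exceed 0.164 CPM (counts-per-million, with TMM normalization). By contrast, Hand2, a transcription factor of the same lineage, ranged from 324 to 866 CPM, and Mycn ranged from 93.2 to 250 CPM. The level of Mycn was not read as a sign of lineage, because the study describes the line as MYCN amplified. The tumors therefore carried Hand2 at a high level but nearly or fully lacked Th, Dbh and Phox2a, which define noradrenergic cells. The set is described below by its genes and not as a neuronal state. In bulk tumors, fewer cells of a type and less RNA per cell cannot be told apart.

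Promoter sequence was taken from RefSeq (GRCm38.p6) for 25 of the 37 members, as the 250 bases before the annotated start. Shown first is Gprin3, the member that rose in the test below, with the E-box CACGTG, the site read by MYC family proteins, in capitals. Its first base lies 99 bases before the start, and the motif, searched on both strands, occurred in 6.86% of 27025 genes and in 1 of the 25 members. Rgs4 and Prph are shown as a pair, each with the TATA box TATAAA in capitals. In both, its first base lies 31 bases before the start. On the sense strand this motif occurred in 8.94% of genes and in 4 of the 25 members, the others being Dcx and Elavl3. Syn1 is shown for the left part of the RE1 motif, TTCAGCACC in capitals, whose first base lies 232 bases before the start. Searched on both strands, it occurred in 0.348% of genes and in 1 of the 25 members, and only the 164 bases outside the annotated gene are printed. The motifs do not overlap one another, and a match describes letters, not binding.
Gprin3 (chr6:59426307-59426556, minus strand): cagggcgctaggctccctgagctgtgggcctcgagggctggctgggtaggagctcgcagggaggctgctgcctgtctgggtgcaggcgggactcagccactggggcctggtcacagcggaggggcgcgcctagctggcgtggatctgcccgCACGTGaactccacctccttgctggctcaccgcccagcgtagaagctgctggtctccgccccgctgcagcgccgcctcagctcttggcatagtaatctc
Rgs4 (chr1:169747643-169747892, minus strand): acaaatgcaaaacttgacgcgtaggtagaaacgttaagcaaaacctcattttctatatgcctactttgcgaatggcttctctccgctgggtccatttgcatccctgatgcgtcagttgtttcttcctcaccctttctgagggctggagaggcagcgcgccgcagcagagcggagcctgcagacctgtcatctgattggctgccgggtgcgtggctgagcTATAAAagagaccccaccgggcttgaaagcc
Prph (chr15:99054924-99055173, plus strand): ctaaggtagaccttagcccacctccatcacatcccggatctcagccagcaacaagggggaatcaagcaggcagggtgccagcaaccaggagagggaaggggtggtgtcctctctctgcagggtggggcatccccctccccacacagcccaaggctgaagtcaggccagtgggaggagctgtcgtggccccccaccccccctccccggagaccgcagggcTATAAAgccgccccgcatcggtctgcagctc
Syn1 (chrX:20921005-20921168, minus strand): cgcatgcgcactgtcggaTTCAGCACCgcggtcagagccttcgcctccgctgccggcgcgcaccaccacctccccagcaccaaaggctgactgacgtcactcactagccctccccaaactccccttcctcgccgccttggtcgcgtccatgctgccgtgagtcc

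Total counts ranged from 18276683 to 23397886 per library, and the members took 0.0855% to 0.111% of them. A count of 0 allows up to 3 counts, or 0.114 to 0.221 CPM, and such floors cover counting error only. Some libraries stood apart. Irradiated replicate 1 had a Pearson r of 0.883 to 0.924 across genes with each other library, and its TMM factor was 0.743 against 0.975 to 1.12 in the others. Vehicle replicate 3 lay between replicates 1 and 2 at 89.3% of the 760 genes where those differed at least 2-fold, and R788 + anti-PDL1 replicate 3 did so at 94.7% of 1045 genes, against 15.6% to 55.8% for the other libraries. Values without irradiated replicate 1 are given for a part of the members, and values without the other pair for the members furthest from Vehicle.

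A few members carried nearly all of the signal. Sox4, Mapt, Prph, Uchl1 and Vamp2 together held 90% of the summed member CPM in Vehicle tumors. Per kilobase of exon, as RPKM (CPM divided by the exon length in kilobases), Sox4 had 60.9 ± 8.06 (SD, n = 3), Uchl1 60.6 ± 29.3, Prph 60.1 ± 16.1, Mapt 36.5 ± 9.71 and Vamp2 10.9 ± 2.62. The levels of Sox4, Uchl1 and Prph per length overlapped among Vehicle tumors and could not be ordered, whereas Vamp2, at 7.94 to 12.8 RPKM, lay below the lowest Mapt value of 25.8 RPKM. In all, 11 members exceeded a mean of 1 RPKM in Vehicle tumors and 5 exceeded 10 RPKM. At the other end, Dcx, Elavl4 and Snap25 had 0 counts in all 9 libraries, 9 members (these 3 included) never exceeded 3 counts, and 8 members had no count in any Vehicle tumor.

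**Figure D1:**
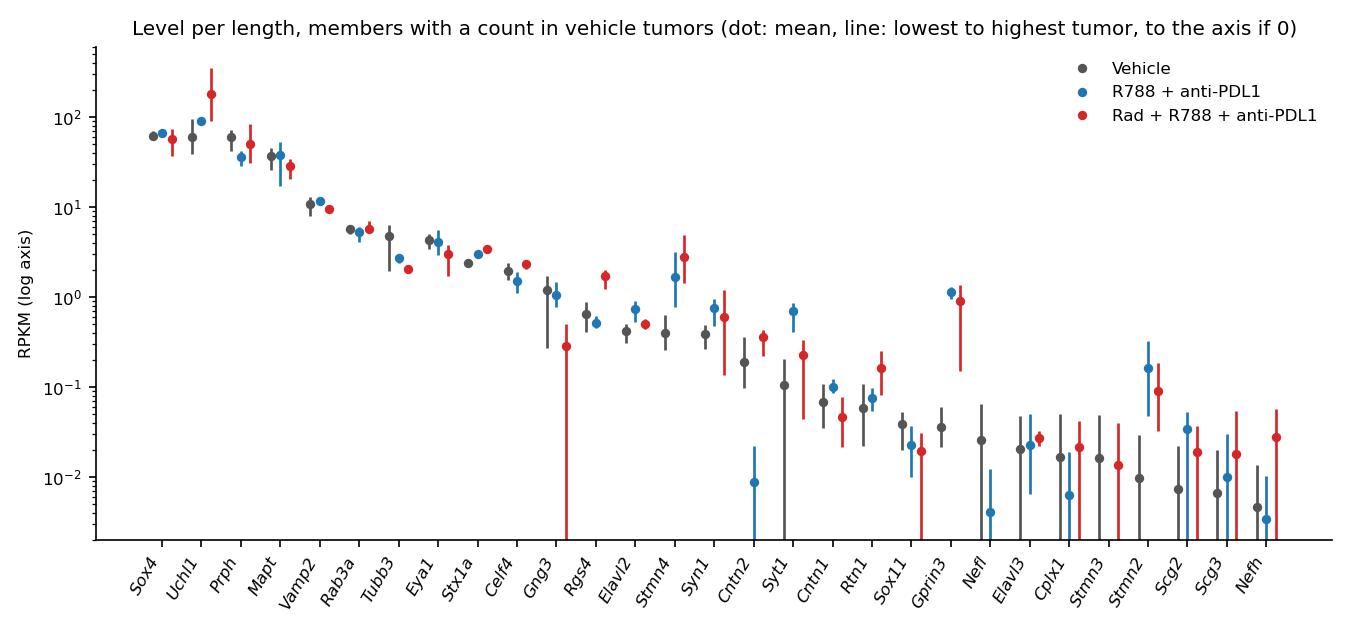
Mean RPKM per group on a log axis (dots) with the lowest to highest tumor (lines) for the members with a count in Vehicle tumors, ordered by their Vehicle mean, 3 tumors per group. Sox4, Uchl1, Prph and Mapt lead in Vehicle tumors, and Gprin3, at 0.0357 RPKM in Vehicle tumors, stands at 1.13 RPKM in R788 + anti-PDL1 tumors.

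Among intermediate filaments, the peripheral neuron filament gene Prph was the only one at a measurable level. Prph measured 83.1, 142 and 136 CPM in Vehicle replicates 1 to 3, 83.5, 56.8 and 76.5 CPM in R788 + anti-PDL1, and 168, 71.2 and 62.3 CPM in irradiated tumors. Vehicle replicate 1 fell inside the R788 + anti-PDL1 range, and irradiated replicate 1 exceeded every other tumor, so the groups overlapped. The neurofilament genes Nefl, Nefm and Nefh and the internexin gene Ina, which build the axonal filaments of central and large peripheral neurons, reached at most 5 counts in any library. Nefl and Nefm share exon bases on opposite strands, and no source says whether reads were counted by strand, so even these few counts were uncertain between the pair.

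Microtubule and growth cone genes ranged from the high level of Mapt to no count. Mapt, which encodes the axonal microtubule protein tau, measured 194, 337 and 293 CPM in Vehicle, 398, 128 and 337 CPM in R788 + anti-PDL1, and 154, 256 and 241 CPM in irradiated tumors. Its spread within R788 + anti-PDL1 tumors covered every Vehicle and irradiated value. Tubb3, the neuronal beta-tubulin, measured 3.64, 11.4 and 11.8 CPM in Vehicle, 5.46, 4.43 and 5.44 CPM in R788 + anti-PDL1, and 3.98, 3.75 and 3.79 CPM in irradiated tumors. Here 2 Vehicle tumors lay above all treated tumors and the other lay below them.

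The stathmins, which bind free tubulin in growing neurites, were low. Stmn4 measured 0.497, 0.583 and 1.2 CPM in Vehicle, 2.07, 5.99 and 1.47 CPM in R788 + anti-PDL1, and 9.36, 2.74 and 3.69 CPM in irradiated tumors, so every treated tumor lay above every Vehicle tumor. Stmn2 had 0, 0 and 3 counts in Vehicle, 6, 47 and 17 counts in R788 + anti-PDL1, and 14, 6 and 4 counts in irradiated tumors. Stmn3 never exceeded 1 count, and the migrating neuroblast gene Dcx had none. Gap43, which encodes the main growth cone membrane protein, had no count in any Vehicle tumor and 66, 4 and 43 counts in R788 + anti-PDL1, where its mean of 1.61 CPM was at least 10.4-fold higher than the floor of the Vehicle group (the mean CPM of 3 counts in each of its libraries). In irradiated tumors it had 0, 0 and 7 counts. Gap43 did not pass the filter on low counts and was not tested. Map2, the dendritic microtubule gene, reached 7 counts in R788 + anti-PDL1 replicate 1 and had none in Vehicle.

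**Figure D2:**
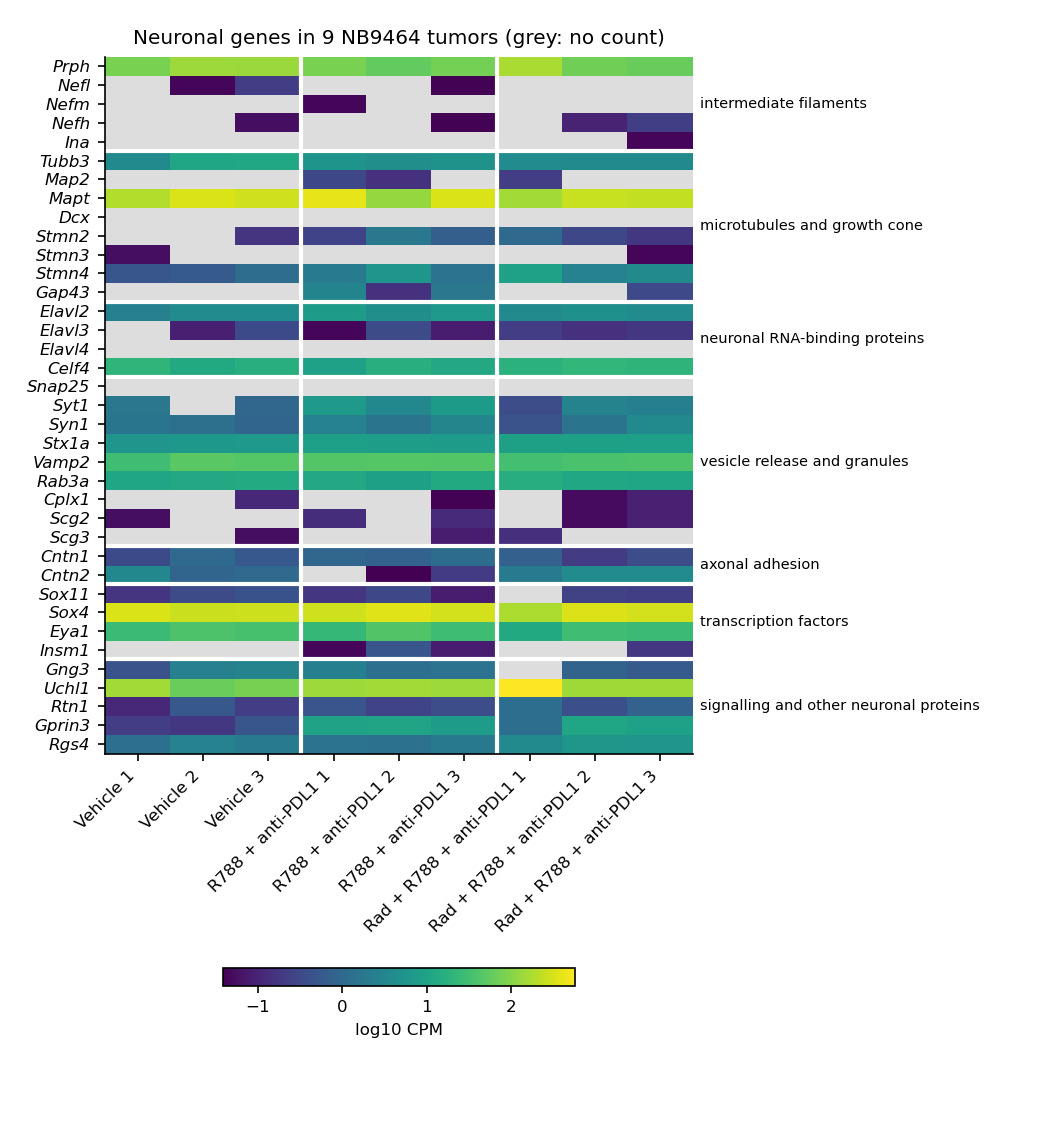
Level of the 37 members in each of the 9 tumors as log10 CPM, grouped by role, with replicates 1 to 3 of each group side by side and grey where a library had no count. Mapt, Sox4, Uchl1, Prph and Vamp2 are high in all tumors, Dcx, Elavl4 and Snap25 are grey throughout, and Gprin3 changes from 0.179 to 0.493 CPM in Vehicle to 7.82 to 10.6 CPM in R788 + anti-PDL1 tumors.

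Of the Hu family, which binds AU-rich neuronal mRNAs, Elavl2 alone was well detected. Elavl2 measured 2.54, 3.90 and 4.11 CPM in Vehicle, 7.44, 4.39 and 6.59 CPM in R788 + anti-PDL1, and 3.68, 4.71 and 3.97 CPM in irradiated tumors. All R788 + anti-PDL1 tumors lay above all Vehicle tumors, by a narrow margin for replicate 2. Elavl3, which shares exon bases with a predicted gene on its own strand, reached 9 counts, and Elavl4 had none. Celf4, a regulator of neuronal mRNA, measured 20.7, 13.3 and 16.4 CPM in Vehicle, 9.43, 16.3 and 12.9 CPM in R788 + anti-PDL1, and 17.7, 22.1 and 19.7 CPM in irradiated tumors. The irradiated tumors lay above the R788 + anti-PDL1 tumors without overlap.

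The vesicle release machinery was incomplete. Release needs a complex of the SNARE proteins encoded by Vamp2, Stx1a and Snap25, and of these Snap25 had no count while Vamp2 and Stx1a were steady. Vamp2 ranged from 30.2 to 48.9 CPM and Stx1a from 5.68 to 9.18 CPM over the 9 tumors. In Stx1a all treated tumors lay above all Vehicle tumors, with Vehicle at 5.68, 6.46 and 6.95 CPM, R788 + anti-PDL1 at 8.59, 8.16 and 7.45 CPM, and irradiated tumors at 9.13, 9.18 and 8.67 CPM. Syt1, the calcium sensor of release, measured 1.71, 0 and 0.931 CPM in Vehicle, 6.83, 3.43 and 7.12 CPM in R788 + anti-PDL1, and 0.368, 2.79 and 2.46 CPM in irradiated tumors. R788 + anti-PDL1 tumors lay above both other groups. Rab3a, a vesicle GTPase, ranged from 9.12 to 15.4 CPM and Syn1, which tethers vesicles, from 0.442 to 3.88 CPM, both with overlap between all groups and both sharing exon bases with a gene on the other strand (Mpv17l2 and Araf). The complexin gene Cplx1 and the granin genes Scg2 and Scg3, which serve release and dense-core granules, never exceeded 3 counts.

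The axonal adhesion gene Cntn2, whose product is a membrane-anchored immunoglobulin protein of early axons, was lowest in R788 + anti-PDL1 tumors. Its counts were 61, 20 and 19 in Vehicle, 0, 1 and 5 in R788 + anti-PDL1, and 28, 77 and 87 in irradiated tumors, or 3.37, 0.897 and 1.04 CPM, then 0, 0.0381 and 0.205 CPM, then 2.06, 3.90 and 3.97 CPM. R788 + anti-PDL1 tumors lay below both other groups without overlap. Cntn1, its paralog, ranged from 0.203 to 1.15 CPM, with all irradiated tumors below all R788 + anti-PDL1 tumors.

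Of the transcription factors, Sox4 and Eya1 were present and Sox11 and Insm1 nearly absent. Sox4 and Sox11 encode closely related factors of immature neurons, and Sox4 ranged from 175 to 357 CPM while Sox11 reached 8 counts. The counts of Sox4 were uncertain to the extent that a predicted gene shares its exon bases on the other strand. Eya1, a transcriptional coactivator, ranged from 13.2 to 42.8 CPM. In both Sox4 and Eya1 the lowest value was that of irradiated replicate 1, and the groups overlapped. Insm1, a zinc finger factor of neuroendocrine precursors, had 13 counts in R788 + anti-PDL1 replicate 2, at most 4 in the other treated tumors and none in Vehicle.

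Signalling and other neuronal proteins held Gprin3, the member with the largest differences from Vehicle. Gprin3, a G protein-regulated inducer of neurite outgrowth, measured 0.221, 0.179 and 0.493 CPM in Vehicle, 9.82, 10.6 and 7.82 CPM in R788 + anti-PDL1, and 1.25, 11.5 and 9.58 CPM in irradiated tumors. Every treated tumor lay above every Vehicle tumor, and irradiated replicate 1, with 17 counts, was the lowest of them. Rgs4, which switches off Gi and Gq signalling, measured 1.27, 2.74 and 1.97 CPM in Vehicle, 1.5, 1.41 and 1.88 CPM in R788 + anti-PDL1, and 3.76, 6.13 and 5.88 CPM in irradiated tumors. All irradiated tumors lay above all others. Uchl1, a neuronal ubiquitin hydrolase, measured 153, 63.3 and 80.2 CPM in Vehicle, 140, 155 and 142 CPM in R788 + anti-PDL1, and 579, 149 and 149 CPM in irradiated tumors, so the high irradiated mean came from replicate 1 alone. The remaining members of this role were low: Gng3, a G protein gamma subunit, ranged from 0 to 2.85 CPM and the reticulon gene Rtn1 from 0.110 to 1.25 CPM. Uchl1 and Gng3 share exon bases with a gene on the other strand.

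**Figure D3:**
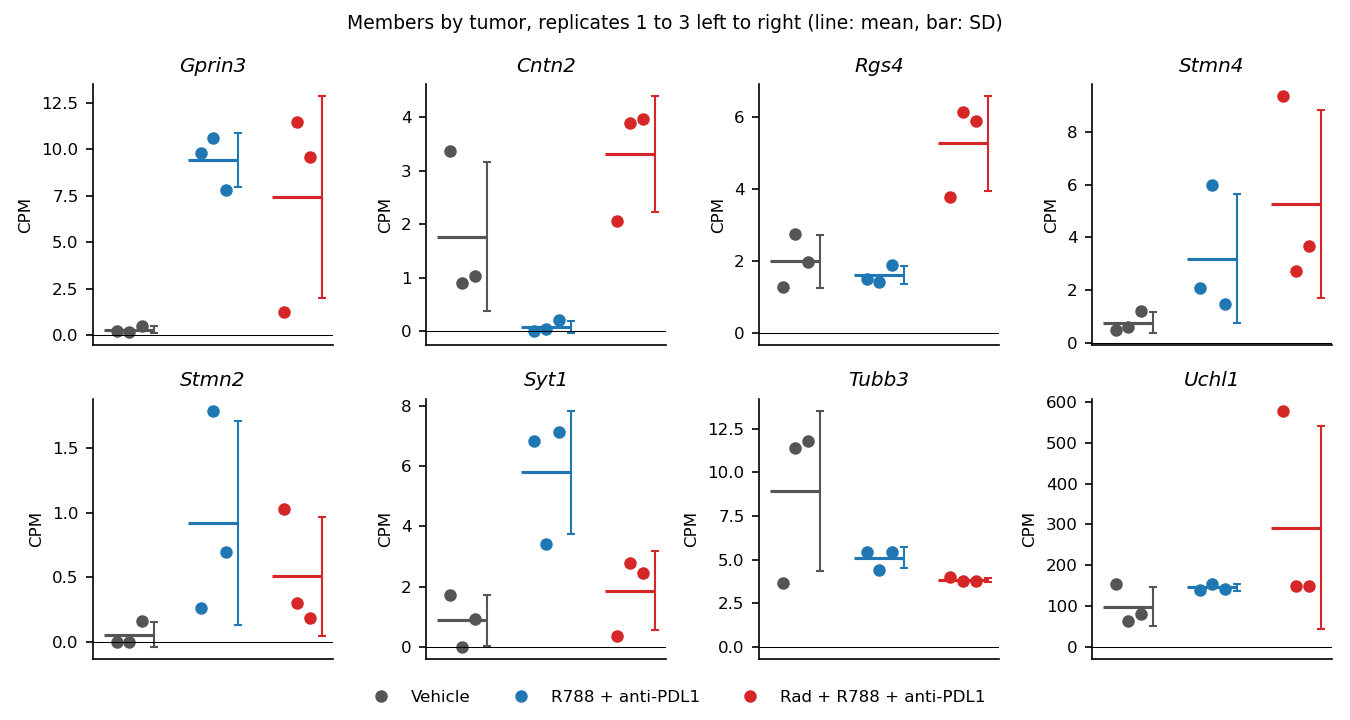
CPM of 8 members in each tumor (points, replicates 1 to 3 from left to right) with the group mean (line) and SD (bar), on linear axes, 3 tumors per group. Gprin3 is lowest in the 3 Vehicle tumors, next in irradiated replicate 1 at 1.25 CPM, Cntn2 is lowest in R788 + anti-PDL1 tumors, Rgs4 is highest in irradiated tumors, and the irradiated mean of Uchl1 rests on the tumor at 579 CPM.

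The contrast of R788 + anti-PDL1 with Vehicle addresses what the drug pair changed in large tumors. In edgeR with all 9 tumors Gprin3 was the only member past the threshold. Its Vehicle counts were 4, 4 and 9, all under the minimum count of 10, so it passed the filter on low counts only through treated tumors. Gprin3 was higher by 4.97 ± 0.81 on the log2 scale (SE, edgeR quasi-likelihood test, adjusted p = 0.0383), from 0.298 ± 0.170 to 9.43 ± 1.45 CPM (SD, n = 3). This was 1 of 21 tested members, where 0.678% of all 15931 genes tested passed, 0.389% in the higher and 0.289% in the lower direction. DESeq2, which called 4.86% of genes, called Gprin3 and Cntn2. The call of Gprin3 was lost when any 1 library other than irradiated replicate 1 was left out (adjusted p 0.0628 to 0.216), although its log2 fold change stayed between 4.70 and 5.52. Without Vehicle replicate 3 and R788 + anti-PDL1 replicate 3 together, it was 5.64 with an adjusted p of 0.769 in edgeR. In that fit Cntn2 was at -6.35, Stmn2 at 7.42, Stmn4 at 2.88 and Syt1 at 2.59, with no member called.

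Cntn2 had a log2 fold change of -4.34 ± 0.96 and did not pass in edgeR (adjusted p = 0.0884), but passed in DESeq2 (adjusted p = 0.000212) and in edgeR without irradiated replicate 1 (adjusted p = 0.0359), a fit that called 5.15% of genes. An unadjusted p under 0.05 was obtained for 5 members in the higher direction, against 5.96% of all genes, and for 1 in the lower direction, against 5.69%. These were Gprin3, Stmn2, Syt1, Stmn4 and Elavl2 on the higher side and Cntn2 on the lower. Stmn2, which also passed the filter on low counts only through treated tumors, changed by 3.99 ± 1.29 (edgeR adjusted p = 0.246). Its summed counts per library size were 18.7-fold higher than in Vehicle (exact 95% counting interval 6.13 to 92.7, from 3 Vehicle counts). This interval covers counting error only and not the spread between tumors. Syt1 changed by 2.73 ± 1.09 (edgeR adjusted p = 0.371), Stmn4 by 2.06 ± 0.71 (edgeR adjusted p = 0.279) and Elavl2 by 0.80 ± 0.35 (edgeR adjusted p = 0.411), none past the threshold. The lowest after Cntn2 were Tubb3 at -0.81 ± 0.42, Prph at -0.73 ± 0.38, Celf4 at -0.38 ± 0.27 and Rgs4 at -0.32 ± 0.41, and Syn1 stood at 0.95 ± 0.69. The other 10 tested members lay between -0.16 and 0.57. The median over the 21 was 0.11, beside -0.02 over all genes. The groups did not overlap for 7 members, or 33.3%, near the 30.1% of all genes.

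Irradiated tumors were compared with Vehicle for the full combination. No member passed the threshold in edgeR, where 0.0439% of all genes did, and DESeq2, which called 3.85% of genes, called Gprin3, Stmn4 and Rgs4. Gprin3 was higher by 4.64 ± 0.81 (edgeR adjusted p = 0.0912, DESeq2 adjusted p = 2.5e-07). Without irradiated replicate 1 it was 5.17 and passed in edgeR (adjusted p = 0.0025), in a fit that called 0.343% of genes. Stmn4 stood at 2.78 ± 0.72 (edgeR adjusted p = 0.221) and Rgs4 at 1.40 ± 0.41 (edgeR adjusted p = 0.265). An unadjusted p under 0.05 was obtained for 5 members on the higher side, against 7.71% of genes, namely these 3, Stmn2 and Uchl1, and for 1 on the lower side, Tubb3, against 5.51%.

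Tubb3 had a log2 fold change of -1.22 ± 0.43 (edgeR adjusted p = 0.31), and Vehicle replicate 1 lay below all irradiated tumors. Uchl1 had 1.56 ± 0.54 with all tumors (edgeR adjusted p = 0.307) and 0.62 without irradiated replicate 1. Stmn2 had 3.08 ± 1.32 (edgeR adjusted p = 0.365). Its summed counts were 8.5-fold higher than in Vehicle (exact 95% counting interval 2.58 to 44.1, counting error only). Further out on the lower side were Gng3 at -1.99 ± 0.97, Cntn1 at -0.59 ± 0.66, Eya1 at -0.53 ± 0.34 and Mapt at -0.34 ± 0.40, and on the higher side Rtn1 at 1.43 ± 0.72. Without irradiated replicate 1, Stmn4 was at 2.11, Stmn2 at 2.12, Rtn1 at 1.03, Gng3 at -1.43, Cntn1 at -1.12, Eya1 at -0.22 and Mapt at -0.12. The other 10 members lay between -0.26 and 1.12 with all tumors. Of these, Prph moved from -0.26 to -0.82, Syt1 from 1.12 to 1.61 and Syn1 from 0.64 to 1.13 without irradiated replicate 1. With all tumors the median over the 21 members was 0.24, beside 0.05 over all genes. For 5 members, or 23.8%, the groups did not overlap, near the 20.5% of all genes.

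Irradiated tumors were compared with R788 + anti-PDL1 tumors to ask what radiation added. No member passed in edgeR, where 0.00628% of genes did, and DESeq2, which called 5.62% of genes, called Cntn2 and Rgs4. Cntn2 was at 3.31 ± 1.08 CPM against 0.0809 ± 0.109 CPM (SD, n = 3), a log2 fold change of 5.25 ± 0.98 (edgeR adjusted p = 0.133, DESeq2 adjusted p = 4.57e-06). Rgs4 was at 5.26 ± 1.31 against 1.60 ± 0.251 CPM, a log2 fold change of 1.72 ± 0.41 (edgeR adjusted p = 0.181, DESeq2 adjusted p = 0.00161). Without irradiated replicate 1 the edgeR values were 5.51 for Cntn2 (adjusted p = 0.0738) and 1.92 for Rgs4 (adjusted p = 0.0934), in a fit that called 0.126% of genes. Celf4 was the third member with an unadjusted p under 0.05, at 0.63 ± 0.27 (edgeR adjusted p = 0.262), and all 3 were on the higher side, where 11.7% of all genes were, against 6.65% on the lower side.

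The strongest differences on the lower side were those of Gng3 at -1.83 ± 0.96, Syt1 at -1.61 ± 1.04, Cntn1 at -1.16 ± 0.65, Stmn2 at -0.91 ± 1.04 and Elavl2 at -0.57 ± 0.35. On the higher side, Rtn1 stood at 1.10 ± 0.70, Uchl1 at 1.01 ± 0.53 and Stmn4 at 0.72 ± 0.67, and without irradiated replicate 1 the last pair fell to 0.04 and 0.02, Rtn1 stood at 0.67, Stmn2 at -1.91, Cntn1 at -1.72, Gng3 at -1.29 and Syt1 at -1.13. None of these had an edgeR adjusted p under 0.323. The other 10 members, Gprin3 among them, lay between -0.45 and 0.47. The median was -0.31 beside 0.04 over all genes, and -0.06 without irradiated replicate 1. The groups did not overlap for 9 members, or 42.9%, against 27.4% of all genes: Celf4, Stx1a, Cntn2 and Rgs4 on the higher side and Tubb3, Syt1, Vamp2, Cntn1 and Gng3 on the lower. Without irradiated replicate 1 the sign turned for 5 members with small differences (Prph, Syn1, Rab3a, Sox4 and Gprin3). The 3 comparisons share groups, so a tumor group that stands apart enters 2 of them.

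**Figure D4:**
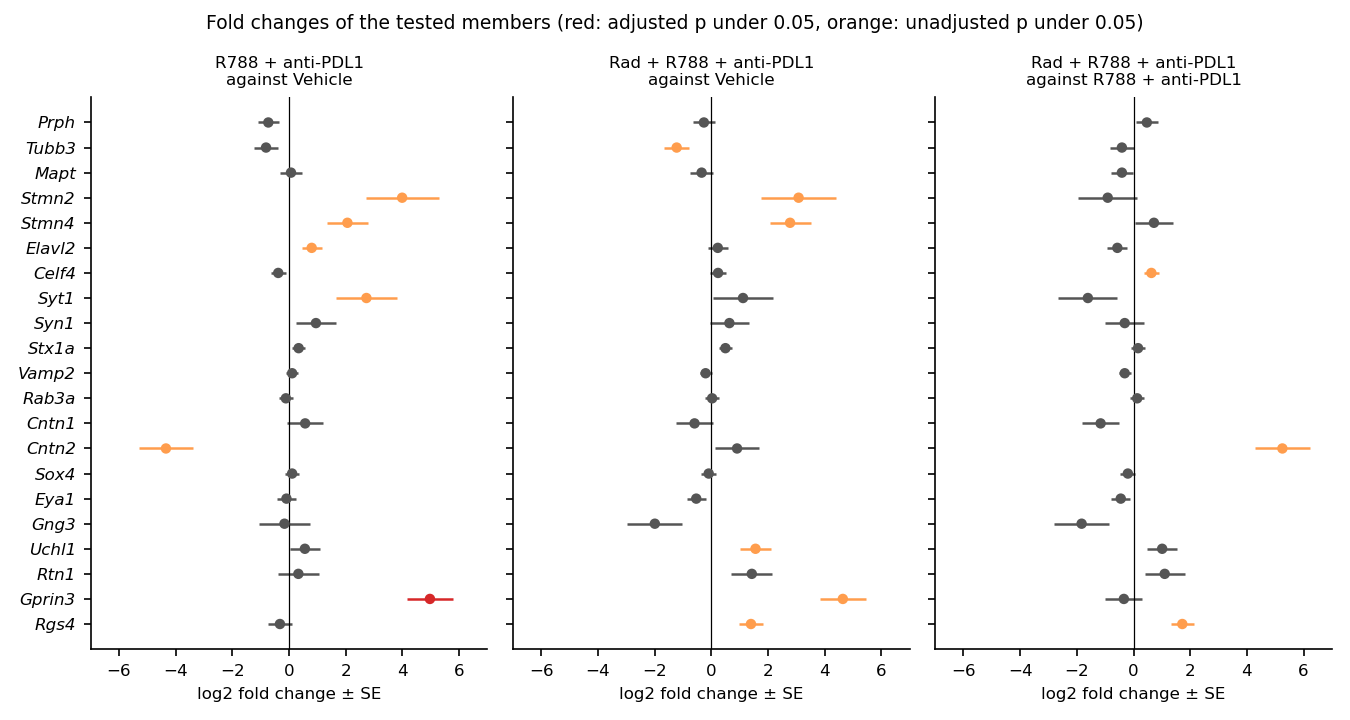
Log2 fold change with its SE for the 21 tested members in the 3 comparisons, from edgeR, with red for an adjusted p under 0.05 and orange for an unadjusted p under 0.05 only. Gprin3 in R788 + anti-PDL1 against Vehicle, at 4.97, is the only red point, and Cntn2 lies at -4.34 in the first panel and at 5.25 in the last.

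**Figure D5:**
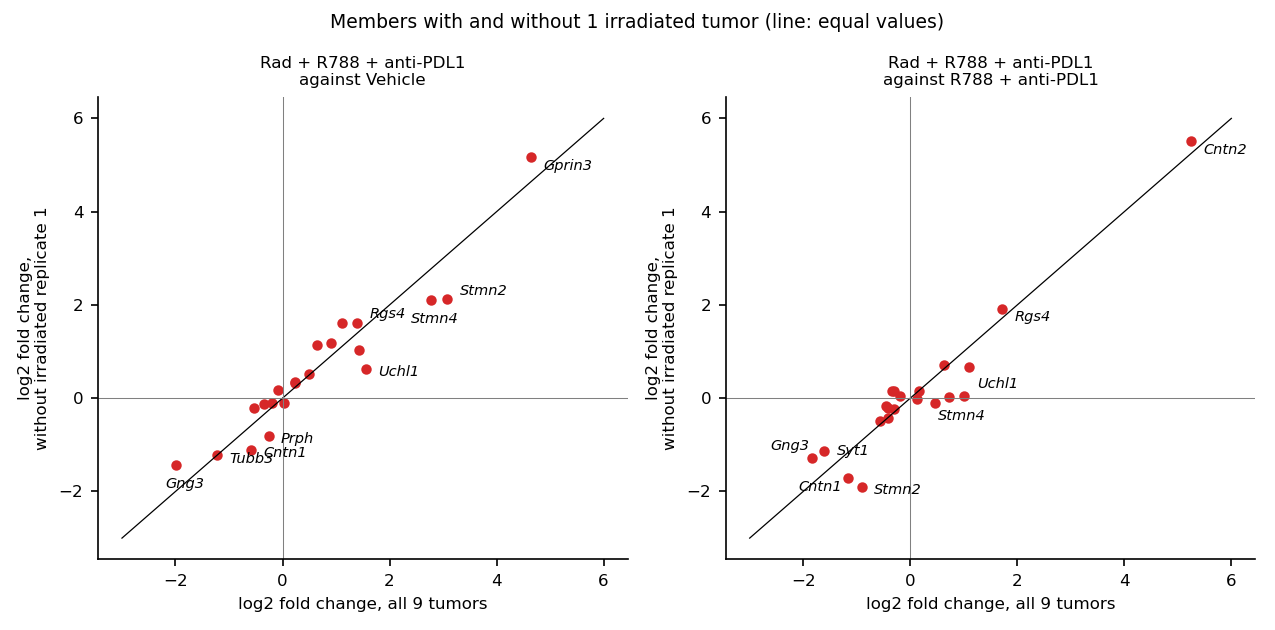
Log2 fold changes of the 21 tested members with all 9 tumors (horizontal axis) and without irradiated replicate 1 (vertical axis) in the comparisons that use irradiated tumors, with a line of equal values. Gprin3, Cntn2 and Rgs4 lie above the line, at 5.17, 5.51 and 1.92 on the vertical axis, and Uchl1 drops from 1.56 to 0.62 against Vehicle and from 1.01 to 0.04 against R788 + anti-PDL1.

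The wider neuronal program was given by 65 further genes in 3 lists, and none of them passed in edgeR with all 9 tumors in any comparison. Without irradiated replicate 1, 3 axon, 2 vesicle and 2 regulator genes passed in R788 + anti-PDL1 against Vehicle, in a fit that called 5.15% of all genes. None passed in the other comparisons, where 0.343% and 0.126% of all genes did. Of 20 axon and cytoskeleton genes, all 20 were tested, and an unadjusted p under 0.05 fell on 6 higher and 1 lower gene in R788 + anti-PDL1 against Vehicle, 2 and 3 in irradiated against Vehicle, and 3 and 1 in irradiated against R788 + anti-PDL1. Over all genes it fell on 5.96% and 5.69%, 7.71% and 5.51%, and 11.7% and 6.65%. The median log2 fold changes of the 20 genes were 0.24, 0.26 and -0.17 in that order, beside -0.02, 0.05 and 0.04 over all genes. Nrn1, a secreted neurite growth protein, was the highest against Vehicle in both cases, at 2.0 ± 0.42 (edgeR adjusted p = 0.0781) and 2.45 ± 0.42 (edgeR adjusted p = 0.0912). Nrn1 measured 3.42, 1.66 and 1.59 CPM in Vehicle, 11.6, 5.42 and 9.58 CPM in R788 + anti-PDL1, and 10.1, 14.4 and 12.0 CPM in irradiated tumors, and DESeq2 called it in both comparisons. The lowest were Kif1a, an axonal motor, at -1.07 ± 0.85, and Cntnap1, a partner of Cntn1 at myelinated axons, at -1.43 ± 0.45. Between the treated groups, Kif1a was highest at 2.17 ± 0.86 and Ank2, an anchor of the axonal membrane skeleton, lowest at -0.92 ± 0.19 (edgeR adjusted p = 0.135).

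Of 25 further genes of vesicle release and granules, 18 were tested, with unadjusted p under 0.05 for 7, 6 and 1 higher and 0, 0 and 3 lower genes in the 3 comparisons in the same order, and medians of 0.63, 0.27 and -0.48. Over all genes the shares were 5.96%, 7.71% and 11.7% on the higher side and 5.69%, 5.51% and 6.65% on the lower. Rab3c, a vesicle GTPase, had the highest fitted value against Vehicle in both cases. It had no count in Vehicle tumors, 49, 1 and 60 counts in R788 + anti-PDL1, and 11, 4 and 4 in irradiated tumors. Rab3c thus passed the filter on low counts only through treated tumors. Set against the floor of the Vehicle group, the mean of 1.55 CPM in R788 + anti-PDL1 was at least 10.0-fold higher, and the mean of 0.398 CPM in irradiated tumors was at least 2.57-fold higher. The lowest were Syt7, a slow calcium sensor, at -1.31 ± 0.78 in R788 + anti-PDL1, and the vesicle glycoprotein gene Sv2b at -1.59 ± 1.19 in irradiated tumors. Between the treated groups, Vgf, a granule protein, was highest at 2.55 ± 0.97 and Sv2b lowest at -2.76 ± 1.19. Vgf measured 4.79 CPM in irradiated replicate 1 against 1.22 and 0.502 CPM in the others, and without that tumor it fell to 1.24, below Syt7 at 1.94. DESeq2 called 4 of these genes higher in R788 + anti-PDL1 and 3 in irradiated tumors against Vehicle, and 2 lower between the treated groups. Of all genes it called 4.86%, 3.85% and 5.62%, both directions together.

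Of 20 neurogenic regulators, 7 were tested, and Neurod4, Myt1l and Nhlh2 were among those with 0 counts in all 9 libraries. The repressor gene Rest itself was present, at 34.4 to 69.3 CPM, and Rcor2, a corepressor of the CoREST family, ranged from 115 to 208 CPM. Unadjusted p under 0.05 was obtained for 0 genes on the higher side in all 3 comparisons and for 1, 1 and 0 on the lower side. On the lower side the shares over all genes were 5.69%, 5.51% and 6.65%, and on the higher side 5.96%, 7.71% and 11.7%. DESeq2 called Rcor2 lower in both comparisons with Vehicle, where it called 4.86% and 3.85% of all genes. The medians of the 7 tested regulators were -0.11, -0.22 and -0.13. In this list the highest and lowest were Sox12, a relative of Sox4, at 2.25 ± 1.23 and 1.52 ± 1.26 against Vehicle, Hes6, a neurogenic HES protein, at -0.74 ± 0.44 in R788 + anti-PDL1 and 0.81 ± 0.44 between the treated groups (-0.03 without irradiated replicate 1), and Celf5 at -1.35 ± 0.94 and -1.47 ± 0.94 in irradiated tumors (-0.83 and -0.96 without replicate 1).

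Among the 11 sympathoblast genes, 1 of the 7 tested, Isl1, a transcription factor of early sympathetic neurons, passed in edgeR with all 9 tumors in R788 + anti-PDL1 against Vehicle, where 0.678% of all genes did. Isl1 had no count in Vehicle, 3.52, 1.83 and 2.58 CPM in R788 + anti-PDL1, and 1.03, 1.37 and 0.958 CPM in irradiated tumors. Isl1 therefore passed the filter on low counts only through the treated tumors, where it was high, and its p-values carry that limit. Against the floor of the Vehicle group its mean in R788 + anti-PDL1 was at least 17.1-fold higher (edgeR adjusted p = 0.0344). In irradiated tumors it was at least 7.23-fold higher (edgeR adjusted p = 0.0605, and 0.0362 without irradiated replicate 1). Ddc, which makes dopamine from its precursor, measured 19.6, 14.3 and 15.8 CPM in Vehicle, 7.71, 3.43 and 5.16 CPM in R788 + anti-PDL1, and 13.6, 7.81 and 4.52 CPM in irradiated tumors, and both treated groups lay below Vehicle. In R788 + anti-PDL1 against Vehicle it was at -1.61 ± 0.44 (edgeR adjusted p = 0.155), and it passed in DESeq2 (adjusted p = 0.0157) and, with Isl1, in edgeR without irradiated replicate 1 (adjusted p = 0.0336). Gata3, another factor of the lineage, measured 11.4, 0.179 and 3.01 CPM in Vehicle, 0.661, 0.305 and 0.327 CPM in R788 + anti-PDL1, and 5.89, 6.03 and 6.80 CPM in irradiated tumors. Vehicle replicate 2 lay below all treated tumors. Gata3 did not pass in edgeR, at -3.48 ± 1.08 against Vehicle (adjusted p = 0.227) and 3.84 ± 1.10 between the treated groups (adjusted p = 0.221), but passed in DESeq2 (adjusted p = 0.0108 and 0.0045).

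Marker genes of other cell types were read beside these results. None of the 8 marker lists, 51 genes in all, had a called gene in edgeR with all 9 tumors in any comparison. The shares called over all genes were 0.678%, 0.0439% and 0.00628% in the 3 comparisons. Of the 34 that were tested, an unadjusted p under 0.05 fell on 6 higher and 0 lower genes in R788 + anti-PDL1 against Vehicle and on 7 and 2 in irradiated against Vehicle, and DESeq2 called 4 and 3 higher. Between the treated groups it fell on 1 higher and 2 lower genes, and DESeq2 called 0. Over all genes, an unadjusted p under 0.05 fell on 5.96% higher and 5.69% lower, 7.71% and 5.51%, and 11.7% and 6.65% in the 3 comparisons. DESeq2 called 4.86%, 3.85% and 5.62% of all genes. The summed level of 10 macrophage markers was 320 to 681 CPM in Vehicle and 710 to 724 CPM in R788 + anti-PDL1. In irradiated replicates 1 to 3 it was 557, 359 and 1920 CPM. That of 8 T cell markers was 3.63 to 8.99 CPM in Vehicle, 14.5 to 29.8 CPM in R788 + anti-PDL1, and 6.04, 11.7 and 42.0 CPM in irradiated replicates 1 to 3. The high end in irradiated tumors was thus that of replicate 3 in both sums. Both sums lay higher in all R788 + anti-PDL1 tumors than in all Vehicle tumors, but the single genes did so for 3 of 10 macrophage markers and 0 of 4 tested T cell markers. Of all 15931 genes tested, 2161 lay higher in this way. Cd4 and Lck carried most of the T cell sum, with means of 1.66 and 3.09 CPM in Vehicle and 12.4 and 6.53 CPM in R788 + anti-PDL1, whereas Cd3e stood at 0.191 and 0.136 CPM. The 6 endothelial markers summed to 34.2 to 44.7, 43.0 to 119 and 48.1 to 62.6 CPM, the 6 fibroblast markers to 3010 to 3740, 2910 to 5360 and 2500 to 4920 CPM, and the 6 Schwann cell markers to 8.82 to 20.4, 14.8 to 21.4 and 6.11 to 18.6 CPM. Keratinocyte markers (5 genes) summed to 4.93 to 7.72, 1.89 to 63.1 and 46.7 to 75.1 CPM, nearly all from Krt5, skeletal muscle markers (6 genes) to 7.67 to 8.88, 6.06 to 9.21 and 8.48 to 27.3 CPM, and adipocyte markers (4 genes) to 17.9 to 42.6, 21.8 to 27.6 and 10.2 to 25.6 CPM. Krt14 went the other way, with a mean of 1.47 CPM in Vehicle, 0 in R788 + anti-PDL1 and 0.0338 CPM in irradiated tumors, and was called lower in R788 + anti-PDL1 without irradiated replicate 1 (edgeR adjusted p = 0.0445). No marker had 0 counts in all libraries. Proliferation genes (10) summed to 2610 to 2850, 1990 to 2660 and 2040 to 2280 CPM. The part of these cell types in the levels of Gprin3, Cntn2, Rgs4, Nrn1 and Isl1 was not tested.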

How the data were processed

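RNA-seq counts of 9 whole NB9464 tumors were used. The deposited table holds estimated counts per gene symbol, as whole numbers with no normalization. According to the methods, the authors aligned reads to mm10 with STAR, quantified them with Salmon and compared groups with DESeq2. The submitters' processing notes list STAR 2.6.1d, Salmon 1.4.0, SAMtools 1.9, Picard 2.26 and MultiQC 1.11. Labels and methods differ on paired or single reads, and strandedness was not stated. Groups were taken from the treatment label. After the filterByExpr filter (minimum count 10) 15931 genes remained, and TMM factors were computed. The quasi-likelihood F test of edgeR 4.0.16 (R 4.3.3), in its robust form, was run on all 9 libraries, with 1 coefficient per group and no covariate. Tests were two-sided, with Benjamini-Hochberg adjustment over all genes tested, at 0.05. The fit was tested on simulated data. Library totals of 18276683 to 23397886 counts leave genes of a few counts imprecise.

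Some genes of the lists are not reported here. The members and all lists were chosen with earlier results of these data known. Fold changes are named for members with an unadjusted p under 0.05 or among the 5 highest or 5 lowest. Other lists are given by counts and by their highest and lowest gene, and Isl1, Ddc, Gata3, Rest, Rcor2, Cd4, Lck, Cd3e, Krt5 and Krt14 were named after their values were seen. Exon lengths and overlaps came from GENCODE M21 (GRCm38), and promoters from RefSeq. Nothing says that same-numbered tumors are linked or that each tumor came from its own mouse, so p-values measure the spread between these samples. Alternatives were DESeq2 1.42.0, limma 3.58.1 (voom, with and without sample quality weights), RLE and upper-quartile normalization, other count filters, a replicate block, pairs of groups fitted alone, and leaving out each tumor.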

Additional observations from a re-analysis of the deposited data

How the results depend on the processing

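The number of members called in R788 + anti-PDL1 against Vehicle was 1 (Gprin3) and moved under 16 of 19 alternatives, over a range of 0 to 9. It was 2 with DESeq2 and 2 with no filter on low counts (Cntn2 and Gprin3 in both, 0.712% of all genes without the filter), 0 with limma-voom (0.697% of all genes), 9 with limma-voom and sample quality weights, which called 30.3% of all genes, and 0 with at least 10 counts in every library, a filter that Gprin3 does not pass. Leaving out 1 tumor gave 0 to 2, and 0 when any tumor other than irradiated replicate 1 was left out. In irradiated against Vehicle it was 0, and 3 with DESeq2, 7 with sample quality weights (12.5% of all genes), 1 with no filter (0.25% of all genes) and 0 to 1 with 1 tumor left out. In irradiated against R788 + anti-PDL1 it was 0, and 2 with DESeq2, 4 with sample quality weights (19.3% of all genes), 1 with no filter (0.0858% of all genes) and 0 to 0 with 1 tumor left out. Leaving out Vehicle replicate 3 and R788 + anti-PDL1 replicate 3, an alternative chosen after seeing the data, gave 0 in R788 + anti-PDL1 against Vehicle.

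Same-number correlations of the deviations from the group means ran from -0.044 to 0.26. The highest were 0.26 and 0.23, for numbers 1 and 2 of Vehicle and irradiated tumors. These correlations have no reference value, so they cannot decide whether same-numbered tumors were linked. With a replicate block the count in R788 + anti-PDL1 against Vehicle was 0 and the member median 0.30, and edgeR called 0 of all genes tested there. The member median there was 0.11 and 0.12 to 0.37 with 1 tumor left out. In irradiated against Vehicle it was 0.24, 0.48 with no filter, 0 with at least 10 counts in every library and 0.17 to 0.43 with 1 tumor left out. In irradiated against R788 + anti-PDL1 it was -0.31, -0.06 with at least 10 counts in every library and -0.39 to -0.06 with 1 tumor left out. Of the values of named members, 567 kept their direction and side of the threshold, 27 came to pass it, 11 ceased to pass it, all of them Gprin3, and 1 reversed: Stmn2 in irradiated against R788 + anti-PDL1 ran from -1.91 to 0.02 with 1 tumor left out, the last without R788 + anti-PDL1 replicate 2. The cause of these changes was not tested. At this depth, 16 members were too low to test.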
